A study of Mus musculus with 6 samples.

Results

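The genes described here encode TGF-beta signalling components, 10 of the 15483 genes in the deposited tables, chosen by symbol for their roles as ligand, receptors, Smads, repressors and the surface docking protein of the ligand. All 10 were found, and all 10 had a mean of at least 1 FPKM (fragments per length of transcript and per sequenced fragment total) over the 6 libraries, so none was lost to the filter on low values. The libraries were RNA-seq of regulatory T cells (Tregs), suppressive CD4 T cells that need the transcription factor Foxp3. They were sorted from mouse bone marrow by the gate CD3+, CD4+, Foxp3+ and NK1.1-. The 3 control libraries came from WT control mice and the 3 irradiated libraries (IR) from WT mice, sorted 3 months post irradiation. The labels give no radiation dose, age, sex or strain for either group, and do not say whether a library is 1 animal or a pool, so a p-value here reflects only variation among the 6 libraries, part of which may be technical.

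TGF-beta 1 is secreted as a latent complex in which its own propeptide covers the active dimer, and the complex is held on cells or matrix until integrins, proteases or thrombospondin release it. The freed ligand binds the type II receptor, which phosphorylates the type I receptor, and that kinase in turn activates Smad2 and Smad3, which enter the nucleus with Smad4. Smad7 ends the signal at the receptor, and Ski and SnoN (encoded by Skil) hold Smad complexes in a repressed state. In T cells the pathway restrains effector responses and helps to induce Foxp3, and Tregs both respond to the ligand and present it on their surface.

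Markers of many marrow cells were measured in these sorted libraries, and most of them differed between the groups. Of 15 tested T cell core genes 12 were lower in irradiated libraries and 0 higher. The summed level of all 16 core genes, with the untested Trat1, was 577.7 to 596.5 FPKM in control and 369 to 382 FPKM in irradiated libraries. Of 7 Treg markers 6 were lower (summed level 108 to 112 and 61.8 to 70.7 FPKM). Of 12 granulocyte markers 10 were higher (67975 to 73015 and 99300 to 102207 FPKM), and of 9 macrophage markers 9 were lower (706 to 729 and 240.2 to 262 FPKM). The lists of B lineage (7 of 7 tested), NK (6 of 7), plasmacytoid dendritic cell (4 of 5) and erythroid markers (6 of 7) were lower too. Of 6 eosinophil, basophil and mast cell markers 3 were higher and 3 lower. The higher ones were the basophil and mast cell genes Mcpt8, Fcer1a and Cpa3, and the lower ones the eosinophil genes Prg2, Epx and Ear2. Of 5 tested megakaryocyte and platelet markers 1 was higher and 1 lower, and of 3 tested stromal and endothelial markers 1 was lower. Over all 10666 genes tested, 10.3% were lower and 6.29% higher by the same rule (limma adjusted p under 0.05 on the deposited values). The labelled cell type had its defining genes present, with Foxp3 at 22.6 ± 1.93 and 12.6 ± 0.795 FPKM and Cd3e at 39.5 ± 2.93 and 24.96 ± 1.42 FPKM (SD, n = 3) in control and irradiated libraries. Beside them stood genes of other cells, such as the neutrophil gene S100a8 at means of 25283 and 39026 FPKM, and Klrb1c, the gene of NK1.1, a surface protein absent from gated cells by definition, at 17.9 and 9.52 FPKM. No list had a marker at 0 in all 6 libraries. The part of these other cells in the changes of the TGF-beta genes was not tested, and in bulk RNA fewer cells of a type and less RNA per cell cannot be told apart. The column totals of the tables were 451444 to 485365 FPKM. The absolute depth is unknown, and low values gave relative depths of 98.5% and 103% of control replicate 1 in the other control libraries and 81.6% to 92.7% in irradiated libraries.

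In irradiated libraries the ligand Tgfb1, the type II receptor Tgfbr2 and the signal transducer Smad3 were lower on the deposited values, and 0 of the 10 genes were higher, a direction that turned for all 10 when libraries were scaled to T cell core genes (given after the single genes). Tgfbr2 stood at 71.4%, Smad3 at 76.4% and Tgfb1 at 80.5% of the control mean. The other 7 genes, Tgfbr1, Smad2, Smad4, Smad7, Lrrc32, Ski and Skil, did not pass the test. The count was thus 3 of 10 lower and 0 of 10 higher by limma at an adjusted p under 0.05, where 10.3% of the 10666 genes tested were lower, 6.29% higher and 16.6% called in either direction. At an unadjusted p under 0.05, 5 of the 10 were lower and 0 higher, beside 17.5% and 12.1% of all genes. Without control replicate 2 the counts over all genes were 722 lower and 414 higher, in place of 1100 and 671, and 2 of the 10 were lower. The median log2 change of the 10 genes was -0.27, against -0.02 over all genes tested, and it was negative in 10 of 10, against 54.8% of all genes. In 6 of the 10 (Tgfb1, Tgfbr1, Tgfbr2, Smad3, Smad4 and Ski) all 3 irradiated values lay below all 3 control values, which held for 20.1% of the genes tested.

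**Figure D1:**
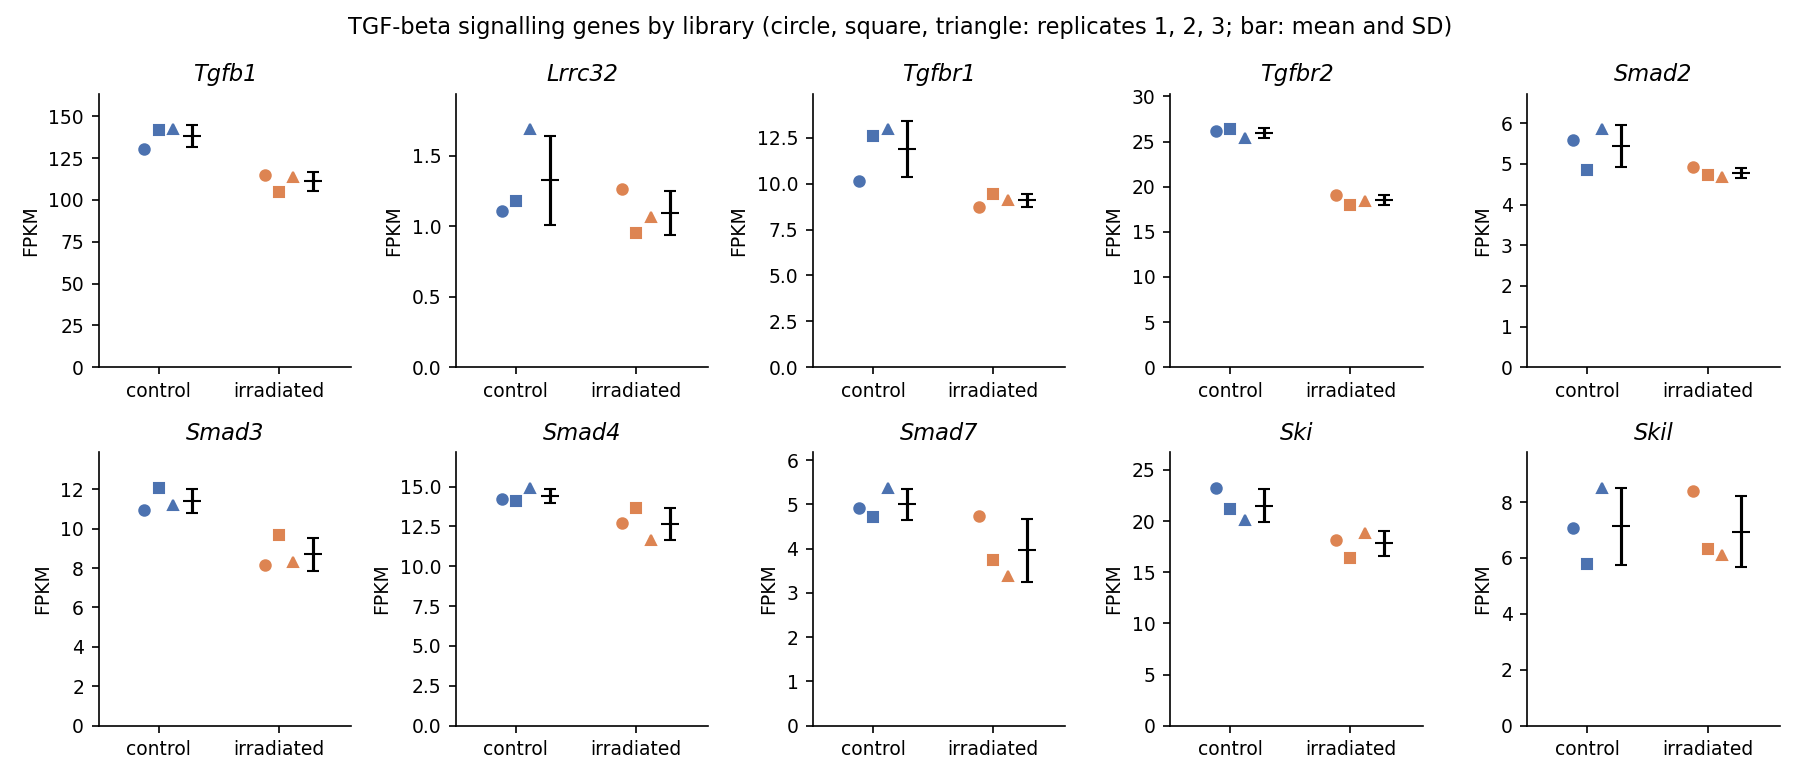
FPKM (vertical axes, each starting at 0) of the 10 genes in the 3 control and 3 irradiated libraries, with circles, squares and triangles for replicates 1, 2 and 3 and bars for the mean and SD of a group. The groups are apart for Tgfb1, Tgfbr1, Tgfbr2, Smad3, Smad4 and Ski, and overlap for Lrrc32, Smad2, Smad7 and Skil.

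FPKM is a level per length of transcript, so the levels of the genes can be ordered. In control libraries the order was Tgfb1, Tgfbr2, Ski, Smad4, Tgfbr1, Smad3, Skil, Smad2, Smad7 and Lrrc32, and irradiated libraries gave the same order. Neighbours whose ranges over the 3 libraries overlapped, and which therefore were not separated, were Tgfbr1 and Smad3, and Smad2 and Smad7, in both groups. Skil and Smad2 overlapped only in control libraries, and Tgfbr2 and Ski, and Smad3 and Skil, only in irradiated libraries, where the change of overlap itself was not tested. The mean level of Tgfb1 over the 6 libraries lay above that of 95.7% of the tested genes, that of Tgfbr2 above 70.2%, that of Smad3 above 45.7% and that of Lrrc32 above 2.13%.

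Tgfb1 encodes the ligand that leukocytes mainly make (GENCODE M21 on GRCm38, chromosome 7, 25687002 to 25705077, plus strand, protein coding). It stood at 130.3, 142 and 142 FPKM in control replicates 1, 2 and 3 and at 115, 105 and 114 FPKM in irradiated replicates 1, 2 and 3. Every irradiated value was below every control value, with a gap between 115 and 130.3 FPKM. The group means were 138 ± 6.70 and 111 ± 5.59 FPKM (SD, n = 3). The log2 change was -0.31 ± 0.06 (SE) with a limma adjusted p of 0.00365, and the call held in 6 of 6 leave-one-out fits, each without 1 library (highest adjusted p 0.0207).

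Tgfbr2 encodes the type II receptor, the subunit that binds the ligand first (chromosome 9, 116084293 to 116175360, minus strand). Control libraries had 26.2, 26.4 and 25.4 FPKM and irradiated libraries 19.1, 18.01 and 18.5 FPKM. The values were tight within each group and far apart between groups, at means of 25.97 ± 0.538 and 18.5 ± 0.566 FPKM. Its log2 change of -0.47 ± 0.07 (limma adjusted p = 0.00114) was the lowest of the 10, and 6 of 6 leave-one-out fits kept the call (highest adjusted p 0.0079).

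Tgfbr1 encodes the type I receptor, the kinase that phosphorylates Smad2 and Smad3 (chromosome 4, 47353222 to 47414931, plus strand). Its values were 10.1, 12.6 and 12.97 FPKM in control and 8.73, 9.43 and 9.09 FPKM in irradiated libraries. Control replicate 1 was the lowest control, and it still lay above all irradiated values. The log2 change was -0.35 ± 0.11, with a 95% interval of -0.59 to -0.10, and it did not pass (limma adjusted p = 0.0542). Without control replicate 1 the change was -0.45 and the adjusted p 0.0266. The ratio of Tgfbr1 to Tgfbr2 was 0.459 ± 0.0640 in control and 0.491 ± 0.0338 in irradiated libraries (SD, n = 3), and the groups overlapped (two-sided exact permutation p = 0.6).

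Smad3 encodes a receptor-activated Smad that binds DNA directly (chromosome 9, 63646767 to 63757994, minus strand). It stood at 10.97, 12.1 and 11.2 FPKM in control and at 8.18, 9.68 and 8.29 FPKM in irradiated libraries, and the groups did not overlap. The log2 change was -0.36 ± 0.10 (limma adjusted p = 0.0381). That call was near the threshold. In 5 of 6 leave-one-out fits, all but that without irradiated replicate 2, Smad3 no longer passed (highest adjusted p 0.145, without control replicate 2). Neither did it with median-of-ratios scaling (adjusted p = 0.0548).

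The other Smads did not pass the test. Smad2, the close relative of Smad3 (chromosome 18), had 5.59, 4.86 and 5.86 FPKM in control and 4.92, 4.73 and 4.69 FPKM in irradiated libraries, where control replicate 2 fell among the irradiated values. Its log2 change was -0.15, with a 95% interval of -0.42 to 0.11 (limma adjusted p = 0.447). The ratio of Smad3 to Smad2 was 2.12 ± 0.319 in control and 1.82 ± 0.199 in irradiated libraries, overlapping between groups (exact permutation p = 0.3). Smad4, the partner shared by all receptor-activated Smads (chromosome 18), had 14.2, 14.1 and 14.9 FPKM in control and 12.7, 13.7 and 11.7 FPKM in irradiated libraries. The Smad4 groups did not overlap, but the gap was narrow, and the log2 change of -0.18 (95% interval -0.38 to 0.03) did not pass (limma adjusted p = 0.233).

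Smad7, the inhibitory Smad that TGF-beta itself induces and that recruits ubiquitin ligases to the receptor (chromosome 18), was among the 3 genes of lowest level. Its values were 4.91, 4.71 and 5.38 FPKM in control and 4.75, 3.74 and 3.39 FPKM in irradiated libraries. Irradiated replicate 1 lay within the control range, while the other irradiated replicates lay below it. The log2 change was -0.28, with a 95% interval of -0.59 to 0.02 (limma adjusted p = 0.201). The ratio of Smad7 to Smad3 was 0.440 ± 0.0461 and 0.459 ± 0.106, and the groups overlapped (exact permutation p = 0.9).

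The repressors Ski and Skil bind Smad complexes on DNA and recruit co-repressors, and their proteins are degraded when the pathway is active. Ski (chromosome 4, 155154075 to 155222592, minus strand) had 23.3, 21.2 and 20.1 FPKM in control and 18.2, 16.4 and 18.8 FPKM in irradiated libraries, with no overlap. The log2 change of Ski was -0.26 ± 0.09, and it did not pass (limma adjusted p = 0.0701, and 0.0632 to 0.24 in the leave-one-out fits). Skil (chromosome 3, 31095058 to 31122577, plus strand) had 7.08, 5.79 and 8.51 FPKM in control and 8.40, 6.33 and 6.10 FPKM in irradiated libraries. The Skil groups shared nearly their whole range, with a log2 change of -0.03 and a 95% interval of -0.37 to 0.31 (limma adjusted p = 0.924). Skil to Ski gave a ratio of 0.334 ± 0.0795 in control and 0.390 ± 0.0692 in irradiated libraries (exact permutation p = 0.4).

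Lrrc32 encodes GARP, the surface protein that holds latent TGF-beta 1 on activated Tregs and on platelets (chromosome 7, 98489283 to 98502181, plus strand). It had the lowest level of the 10 genes, at 1.11, 1.18 and 1.69 FPKM in control and 1.26, 0.953 and 1.06 FPKM in irradiated libraries. Control replicate 3 stood above the rest, and the other 5 libraries were mixed. The log2 change was -0.15, with a 95% interval of -0.51 to 0.22 (limma adjusted p = 0.61), on a scale that understates the change of low genes. In the same libraries Foxp3 fell from 21.8, 21.2 and 24.8 FPKM to 13.5, 12.3 and 11.9 FPKM, a log2 change of -0.80 ± 0.09 (limma adjusted p = 0.000119).

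The ratio of Lrrc32 to Foxp3 was 0.0508, 0.0556 and 0.0681 in control and 0.0938, 0.0773 and 0.0893 in irradiated libraries. All 3 irradiated ratios were above the control ratios, and the log2 difference was 0.58. The denominator Foxp3 was at -0.80, beside a median of -0.02 over all genes tested. A gene near that median would thus also rise relative to Foxp3, and the share of such genes was not computed. By two-sided exact permutation its p was 0.1, which is the lowest value reachable with 3 libraries a group. Adjusted over the 6 ratios compared, that p was 0.6, so the ratio did not pass. Tgfb1 to Lrrc32, the ratio of the ligand to its docking protein, was 107 ± 19.96 in control and 103 ± 10.1 in irradiated libraries (exact permutation p = 0.7). After the same adjustment the p-values of the remaining 5 ratios were 0.8 to 0.9.

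**Figure D2:**
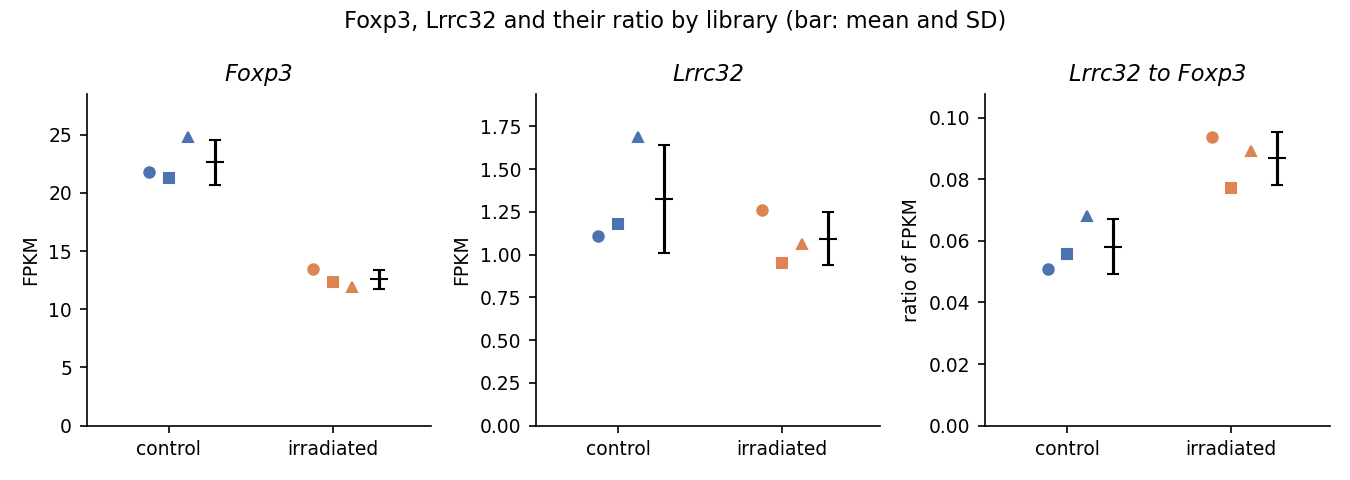
FPKM of Foxp3 and of Lrrc32, and the ratio of Lrrc32 to Foxp3 within each library (vertical axes from 0), in control and irradiated libraries, with circles, squares and triangles for replicates 1, 2 and 3 and bars for mean and SD. Foxp3 separates the groups, Lrrc32 does not, and the 3 irradiated ratios, 0.0773 to 0.0938, lie above the control ratios, 0.0508 to 0.0681. The denominator Foxp3 fell, and the ratio did not pass the test.

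Because 12 of 15 tested T cell core genes fell, a second scale was used. On it every library was divided by a size factor from all 16 core genes (their geometric mean), the low Trat1 included. That scaling moved the median log2 change of all genes from -0.02 to 0.49, and 76.2% of the genes tested were then higher and 2.55% lower. All 10 TGF-beta genes changed sign on this scale, where Tgfb1, Smad2, Smad4, Ski and Skil were called higher by limma and 0 lower. Tgfb1 was at 0.26 ± 0.06 (limma adjusted p = 0.00163), Smad4 at 0.36 (adjusted p = 0.00548) and Skil at 0.47 (adjusted p = 0.012). Tgfbr2 was at 0.09 ± 0.08 and did not pass (adjusted p = 0.321), and the T cell receptor gene Cd3e, itself in the core list, was at -0.08 ± 0.08. Relative to the median of all genes on that scale, the 10 genes lay between -0.41 for Tgfbr2 and -0.02 for Skil. With median-of-ratios scaling 0 of the 10 genes were called higher and 2, Tgfb1 and Tgfbr2, lower. Over all 10666 genes tested that scaling gave 813 higher and 939 lower. Foxp3 was at -0.26 ± 0.09 on the T cell scale (adjusted p = 0.0216).

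**Figure D3:**
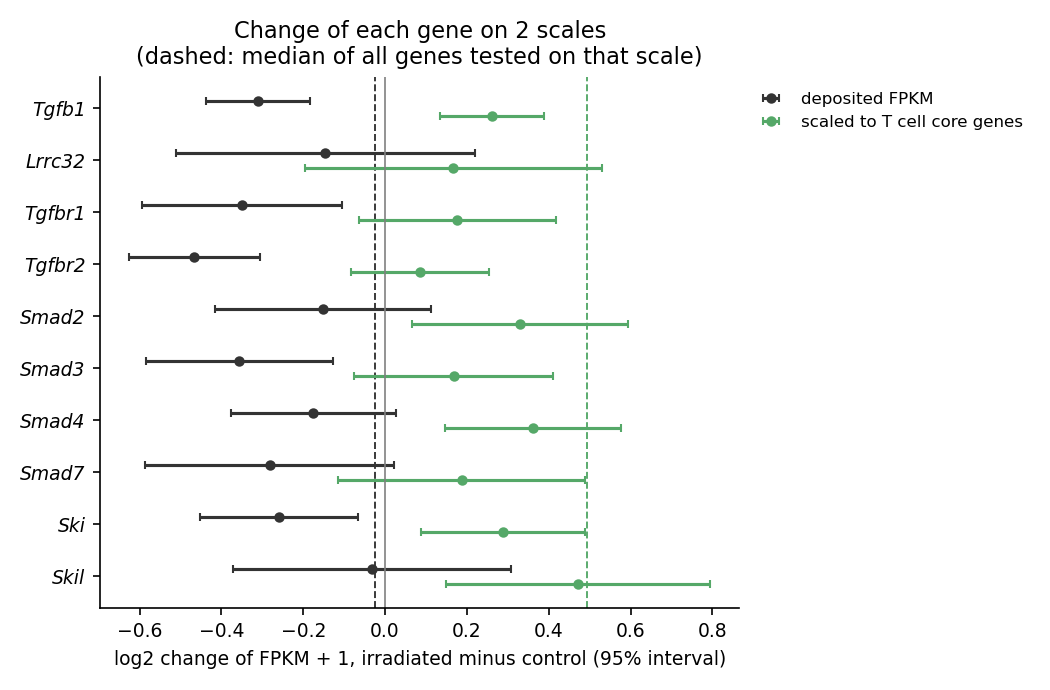
Log2 change of FPKM + 1, irradiated minus control (horizontal axis), with 95% intervals, for the 10 genes on the deposited values (black) and after scaling each library to its T cell core genes (green), where dashed lines mark the median change of all tested genes on each scale. All 10 genes are below 0 on the deposited values and above 0 on the T cell scale, and on both they lie below the dashed line of that scale.

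The promoters of the 3 genes that fell are shown because these were the genes called on the deposited values, and 5 of the 10 genes (Tgfb1, Tgfbr1, Tgfbr2, Smad3 and Ski) matched the RefSeq promoter table of GRCm38.p6 by symbol. The stretches are the 250 bases before the start site, 5′ to 3′ on the strand of the gene, at chr7:25686752-25687001 (plus) for Tgfb1, chr9:116175364-116175613 (minus) for Tgfbr2 and chr9:63757995-63758244 (minus) for Smad3. Capitals mark CAGAC on either strand, the core of the element that Smad3 and Smad4 bind.

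Tgfb1: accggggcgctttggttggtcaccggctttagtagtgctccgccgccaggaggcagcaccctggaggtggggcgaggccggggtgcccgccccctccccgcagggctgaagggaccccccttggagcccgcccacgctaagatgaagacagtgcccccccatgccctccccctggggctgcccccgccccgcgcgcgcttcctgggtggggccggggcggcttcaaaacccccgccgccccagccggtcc
Tgfbr2: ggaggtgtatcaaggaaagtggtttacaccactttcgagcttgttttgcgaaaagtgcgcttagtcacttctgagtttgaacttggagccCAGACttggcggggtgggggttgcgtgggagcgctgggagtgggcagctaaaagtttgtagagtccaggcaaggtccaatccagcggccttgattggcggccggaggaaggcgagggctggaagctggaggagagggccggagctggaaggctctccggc
Smad3: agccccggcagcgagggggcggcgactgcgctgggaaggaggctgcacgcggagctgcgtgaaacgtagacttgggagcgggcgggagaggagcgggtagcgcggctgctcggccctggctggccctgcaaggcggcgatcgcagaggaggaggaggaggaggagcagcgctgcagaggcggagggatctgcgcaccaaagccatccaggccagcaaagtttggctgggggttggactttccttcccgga

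CAGAC occurred once in the Tgfbr2 stretch and in neither of the others, and it occurs in 42.2% of all 32851 RefSeq promoter stretches of the same length. The longer CAGACA, which contains CAGAC, occurred in none of the 3 and in 17.1% of all stretches, and the palindromic GTCTAGAC in none of the 3 and in 0.167% of all, both strands searched. The 3 stretches were rich in G and C, at 75.2% for Tgfb1, 69.2% for Smad3 and 58.4% for Tgfbr2, against a median of 52.4% over all stretches. They held 21, 22 and 12 CG dinucleotides, against a median of 6. These letters are a description of the windows and say nothing of binding.

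The remaining genes of the pathway were read from lists by role. Of 56 other pathway genes 37 reached a mean of 1 FPKM and were tested, and of these 2 were higher and 4 lower, beside 6.29% and 10.3% of all genes, with a median log2 change of -0.02 (the same over all genes). The calls sat among the latency genes and the receptors. Of 4 tested genes of the other Smads and Smad anchors, 11 of ubiquitin and phosphatase control, 5 nuclear co-factors and 5 of the non-Smad branch, limma called 0 higher and 0 lower, and 1 gene in these lists, Tab1, had an unadjusted p under 0.05. The count of 4 lower other pathway genes was 1 without control replicate 1, control replicate 2 or irradiated replicate 3, and 2 without irradiated replicate 1.

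**Figure D4:**
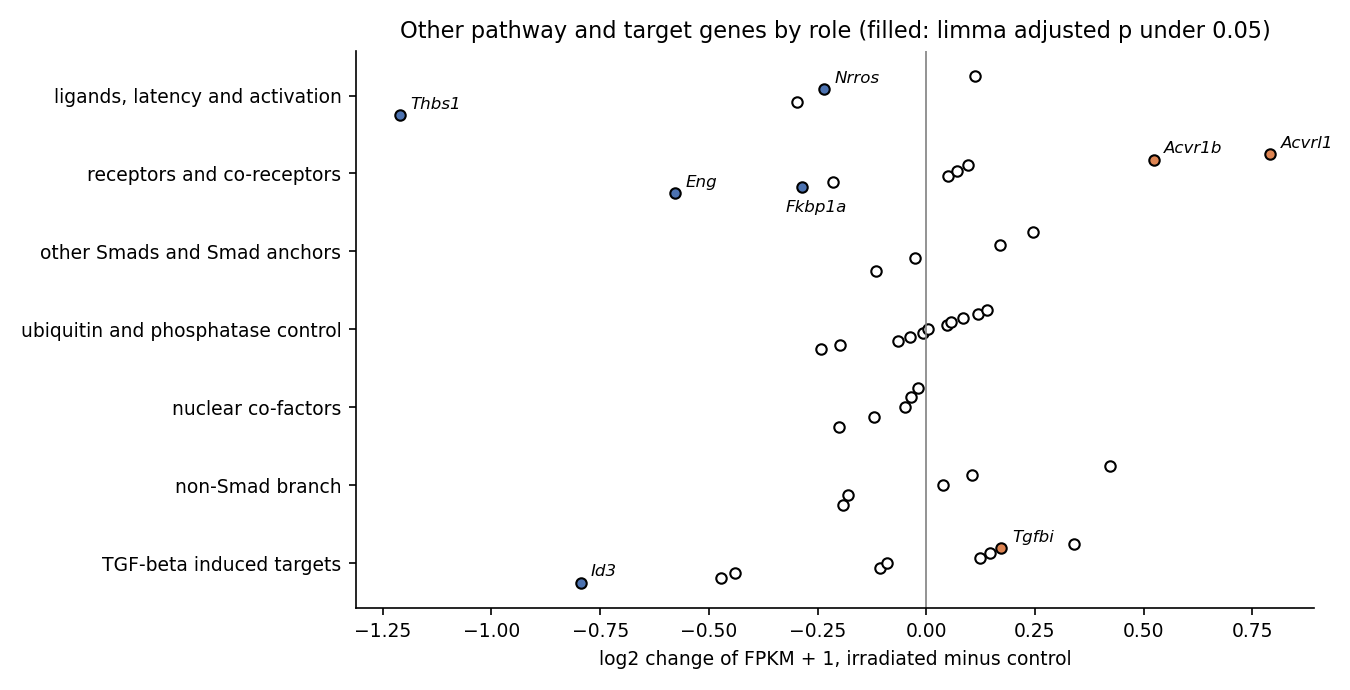
Log2 change of FPKM + 1, irradiated minus control (horizontal axis), of each tested pathway and target gene on the deposited values, grouped by role, with filled points for genes past a limma adjusted p of 0.05 (orange higher, blue lower). The named genes Acvrl1, Acvr1b and Tgfbi lie to the right and Thbs1, Id3, Eng, Fkbp1a and Nrros to the left. After scaling to T cell core genes Fkbp1a and Nrros turned higher, and Eng and Id3 did not pass.

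Among 4 tested genes of latency and activation, 2 were lower and 0 higher, beside 10.3% and 6.29% of all genes. Thbs1, which encodes thrombospondin 1, an activator of latent TGF-beta made by platelets, macrophages and other cells, stood at 11.8, 10.98 and 12.9 FPKM in control and 5.42, 4.67 and 3.72 FPKM in irradiated libraries. The irradiated values were all under those of control, at a log2 change of -1.21 ± 0.13 (limma adjusted p = 8.64e-05), and Thbs1 was the 1 pathway gene lower on the T cell scale too, at -0.71 ± 0.13. Nrros, which encodes the myeloid counterpart of GARP, had 39.0, 38.7 and 40.4 FPKM in control and 33.2, 33.1 and 33.6 FPKM in irradiated libraries. Its log2 change was -0.24 ± 0.06 (adjusted p = 0.0244), but 0 of 6 leave-one-out fits kept that call (adjusted p 0.0514 to 0.0658), nor did a fit with the replicate number as a block (0.0505). On the T cell scale the change of Nrros turned to 0.33. The alpha V integrin Itgav was at -0.30 (adjusted p = 0.231), and Furin, the protease that cleaves the precursor and a gene chosen after its values were seen, at 0.11 (adjusted p = 0.323). The macrophage markers were lower on both scales (9 of 9), as Thbs1 was, while Nrros was called higher on the T cell scale. Lower on both scales were also the tested B lineage markers (7 of 7) and the platelet gene Ppbp, at -1.14 and -0.89. Of the 5 tested megakaryocyte and platelet markers, 4 were higher on the T cell scale. The part of macrophages, platelets or other cells in these changes was not tested.

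Of 8 tested genes of receptors, co-receptors and a receptor-binding protein, 2 (Acvrl1 and Acvr1b) were higher and 2 (Fkbp1a and Eng) lower, beside 6.29% and 10.3% of all genes, with a median log2 change of 0.06. On the T cell scale 5 of the 8 were higher and 0 lower by limma, beside 76.2% and 2.55% of all genes. Acvrl1, which encodes ALK1, a type I receptor known for BMP9 and BMP10 signals in endothelium, rose from 15.1, 15.1 and 13.6 FPKM to 27.9, 27.6 and 22.8 FPKM. The groups were far apart, with a log2 change of 0.79 ± 0.10 (limma adjusted p = 0.000181), and 6 of 6 leave-one-out fits kept the call. Acvr1b, which encodes ALK4, the activin type I receptor that also signals through Smad2 and Smad3, rose from 12.9, 15.8 and 14.5 FPKM to 18.8, 22.6 and 22.0 FPKM. All 3 irradiated values of Acvr1b exceeded the control values, at 0.52 ± 0.10 (limma adjusted p = 0.00477, up to 0.0246 without a library). Both were higher on the T cell scale too, at 1.34 and 1.07.

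Fkbp1a encodes FKBP12, which keeps type I receptors inactive without ligand, and it had 46.4, 43.4 and 40.5 FPKM in control and 36.8, 35.95 and 33.5 FPKM in irradiated libraries. The groups were apart at a log2 change of -0.29 ± 0.07 (limma adjusted p = 0.0201), with the call kept in 3 of 6 leave-one-out fits (highest adjusted p 0.0903) and a change of 0.28 on the T cell scale. Eng, which encodes the co-receptor endoglin and was named after its values were seen, had 6.09, 5.27 and 4.64 FPKM in control and 3.16, 4.14 and 2.53 FPKM in irradiated libraries. Its log2 change was -0.58 ± 0.16 (limma adjusted p = 0.0319), and the call held in 2 of 6 leave-one-out fits, those without control replicate 3 or irradiated replicate 2 (highest adjusted p 0.129). On the T cell scale Eng was at -0.12 and did not pass (limma adjusted p = 0.544). Granulocyte markers (10 of 12) were higher in the libraries in which Acvrl1 and Acvr1b rose, and Pecam1, a marker of endothelium that leukocytes share, was at -0.01 (adjusted p = 0.951). The endothelial markers Cdh5 and Kdr were at 1.18 and 0.370 FPKM in control and 0.191 and 0.0265 FPKM in irradiated libraries, below the filter. The basophil and mast cell genes Mcpt8, Fcer1a and Cpa3 were higher as well, while the 3 eosinophil markers were lower. Of the megakaryocyte and platelet markers Itga2b was higher, at 0.75 (limma adjusted p = 4.87e-05), and Ppbp lower, at -1.14 (0.00311). Of the stromal markers Cxcl12 was at 0.34 and did not pass (0.156), and Col1a1 was lower, at -0.96 (0.00119). The part of any of these cells in the rises of Acvrl1 and Acvr1b was not tested.

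**Figure D5:**
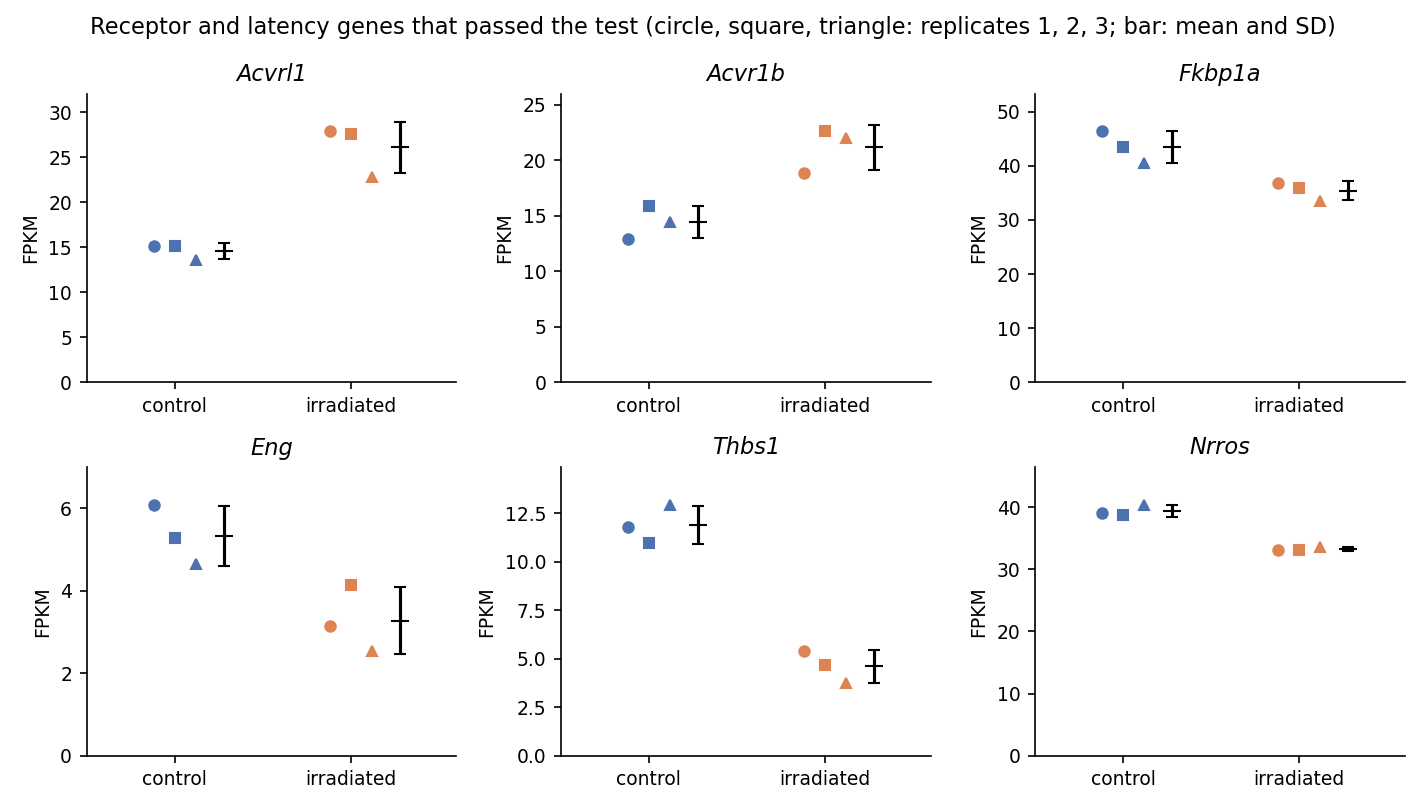
FPKM (vertical axes from 0) of the 6 receptor and latency genes past the limma threshold on the deposited values, in 3 control and 3 irradiated libraries, with circles, squares and triangles for replicates 1, 2 and 3 and bars for mean and SD. Acvrl1 and Acvr1b are higher in all irradiated libraries, while Fkbp1a, Eng, Thbs1 and Nrros are lower. After scaling to T cell core genes Fkbp1a and Nrros turn higher, and Eng does not pass.

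Of 13 genes listed as TGF-beta targets 9 were tested. Of these 1 (Tgfbi) was higher and 1 (Id3) lower, beside 6.29% and 10.3% of all genes. Their median log2 change was -0.09. Tgfbi, which encodes a secreted matrix protein also made by monocytes, had 149, 154.8 and 155 FPKM in control and 174, 174 and 169.8 FPKM in irradiated libraries. Its rise of 0.17 ± 0.05 on the log2 scale (limma adjusted p = 0.0251) was small, and the call held in 1 of 6 leave-one-out fits and not with a replicate block (adjusted p = 0.0596). Id3, an inhibitor of E proteins in lymphocytes that BMP signals induce, fell from 3.09, 4.30 and 5.53 FPKM to 1.84, 1.96 and 2.23 FPKM. The Id3 change was -0.80 ± 0.18 (limma adjusted p = 0.01), with the call kept in 6 of 6 leave-one-out fits, and it did not pass on the T cell scale (-0.37, adjusted p = 0.0627). Tsc22d1, a TGF-beta-responsive leucine zipper gene, was at -0.44 ± 0.14 and did not pass (adjusted p = 0.0564).

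The genes of lowest p in the lists without a call are given by role, as log2 changes. Smad1 and Smad5, which carry BMP signals, were at 0.25 (limma adjusted p = 0.203) and 0.17 (0.380), and the endosomal anchor Hgs at -0.12 (0.360). Smurf2, a ubiquitin ligase that acts on the receptors and Smads, was at -0.24 (adjusted p = 0.206), Usp11, a deubiquitinase, at -0.20 (0.313) and Trim33, a Smad-binding ligase, at 0.12 (0.524). Among nuclear co-factors Crebbp, an acetyltransferase, was at -0.20 (0.264), the repressor Tgif1 at -0.12 (0.605) and Sin3a at -0.05 (0.776). In the non-Smad branch, which runs through the kinase TAK1, Tab1 had 8.88, 8.58 and 10.1 FPKM in control and 10.1, 14.3 and 13.9 FPKM in irradiated libraries. Tab1 was at 0.42 ± 0.13 and missed the threshold (adjusted p = 0.0522), which it passed without irradiated replicate 1 (0.00722), with a minimum mean of 5 FPKM (0.0438), with median-of-ratios scaling (0.0369), quantile normalization (0.0355) or array weights (0.0332), and on the T cell scale, where its change was 0.95 (9.58e-05). Tab2 was at -0.19 (0.188) and Traf6 at -0.18 (0.278).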

How the data were processed

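The authors deposited, for each library, 1 value a gene, read here as FPKM from the values, since no header states the unit. The submitters' processing notes list fastp, HISAT2, StringTie and the builds GRCm38 and mm10. Which versions or annotation they used is not given in the sources used here, so how reads were counted between strands or copies is unknown. Genes averaging 1 FPKM or more over the 6 libraries entered a limma 3.58.1 fit (R 4.3.3, lmFit, then eBayes with a trend) of log2(FPKM + 1), irradiated minus control, two-sided, with Benjamini-Hochberg adjustment over all 10666 genes and a threshold of 0.05. Ratios within a library were compared by exact permutation with scipy 1.17.1, adjusted over 6 ratios.

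The genes and lists were chosen with earlier results of these data known. Named were the 10 genes, the 3 of lowest p in each other pathway or target list, Foxp3 and Cd3e, and the 5 genes most like Tgfb1 and Lrrc32 by Pearson's r among genes of at least 5 FPKM. Relative depth came from genes below 0.1 FPKM whose ratio between libraries matched whole numbers up to 6 within 0.001. The test was tested on simulated data of 10666 genes, where it recovered 78.0% of the genes given a change of 0.5 on the log2 scale and 99.8% of those given 1, with 5.63% false calls. There 200 genes changed in each draw, and the Gaussian spread of a gene was set by its mean level alone, unlike real genes. The changes of the 10 TGF-beta genes were all smaller in size, the largest being -0.47 for Tgfbr2, so these shares do not give the recovery of such changes. Alternatives were a pseudocount of 0.1, other filters, scalings and fits, a fold rule, a block for the replicate number and leave-one-out fits.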

Additional observations from a re-analysis of the deposited data

How the results depend on the processing

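Replicates were numbered alike in both groups, but same-numbered libraries did not deviate together (r = 0.0111, -0.0423 and -0.0228 across genes), so the numbers give no pairing. With the replicate block 558 genes were higher and 948 lower, and 3 of the 10 TGF-beta genes were lower. Scaling to T cell core genes gave 8130 higher and 272 lower over all genes, 5 and 0 among the 10, and 30 and 1 among the other pathway genes. Calling on the unadjusted p (under 0.05) and a change of 1 or more on the log2 scale gave 40 higher and 172 lower, 0 of the 10 lower, and 0 higher and 1 lower among the other pathway genes, where the fit without a trend gave 2 lower. Leaving out a library gave 414 to 684 higher and 722 to 978 lower over all genes, 2 to 3 of the 10 lower and 0 higher, and 2 to 3 higher and 1 to 3 lower among the other pathway genes.

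On the T cell scale, which shifts all genes upward by construction, 21 of 35 named genes reversed: Tgfb1 0.26, Tgfbr1 0.18, Tgfbr2 0.0852, Smad2 0.33, Smad3 0.17, Smad4 0.36, Smad7 0.19, Lrrc32 0.17, Ski 0.29, Skil 0.47, Nrros 0.33, Itgav 0.16, Fkbp1a 0.28, Hgs 0.43, Smurf2 0.28, Usp11 0.31, Crebbp 0.31, Tgif1 0.32, Sin3a 0.50, Tab2 0.36 and Traf6 0.34. Skil, whose change is near 0, was also at 0.0194 with quantile normalization and 0.0228 with array weights, and at -0.16 to 0.0889 without a library. Sin3a ran from -0.10 to 0.0415. The log2 differences of the ratios ran through 0 without a library for Tgfbr1 to Tgfbr2 (-0.0121 to 0.19), Smad7 to Smad3 (-0.14 to 0.15) and Tgfb1 to Lrrc32 (-0.22 to 0.0390). The cause was not tested. Smad3 was also lost without the filter (adjusted p = 0.0649) and with quantile normalization (0.054), and Tgfbr1 passed with a minimum mean of 5 FPKM (0.0487). The shallower irradiated libraries and the unknown depth limit Lrrc32 and the genes below 1 FPKM.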

Other observations

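Several TGF-beta family genes lay below the filter and were not tested, and those named here were chosen after their values were seen. Tgfb2 and Tgfb3, the other ligands, were listed at 0 in all irradiated libraries and reached 0.0222 and 0.104 FPKM at most in control libraries. Itgb8, the integrin chain with which Tregs activate latent TGF-beta, had 0.449, 0.676 and 0.989 FPKM in control and 0.219, 0 and 0.193 FPKM in irradiated libraries, with no overlap. Pmepa1, a TGF-beta-induced gene whose protein curbs the pathway, had 0.881, 0.970 and 1.04 FPKM in control and 0.511, 0.281 and 0.350 FPKM in irradiated libraries. Smad6, the inhibitory Smad of BMP signals, had 0.138, 0.361 and 0.288 FPKM in control and 0.836, 0.939 and 0.460 FPKM in irradiated libraries, again with no overlap. Of the tested genes 20.1% had all irradiated values below control and 13.5% all above, and the share among untested genes was not computed. Among other untested genes of the lists, Ltbp3, Acvr2a and Tgif2, for example, overlapped, while Bambi and Dab2 did not.

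Over the 6 libraries the genes most like Tgfb1 by Pearson's r of log2(FPKM + 1), among 7891 compared, were Il6ra (0.998), Cd209a (0.994), Bcr (0.991), Ppp1r9b (0.990) and Gpr171 (0.990). Those most like Lrrc32 were Setd1a (0.981), Erbin (0.976), Casd1 (0.969), Cyp27a1 (0.967) and Cnst (0.966). All these points share the same 6 libraries and the difference between the groups, and scaling to T cell core genes replaced all 5 of the genes named for Tgfb1 and 4 of the 5 named for Lrrc32. On that scale r with Tgfb1 was -0.72 for Cd209a and -0.60 for Gpr171.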
